A study of Homo sapiens with 4 samples.

Results

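The comparison described here sets HCC827-myr-AKT1 cells against HCC827-vector cells, gene by gene. HCC827 is an established human lung adenocarcinoma (LAD) line whose epidermal growth factor receptor gene, EGFR, carries an activating mutation. The HCC827-myr-AKT1 cells were transduced with myr-AKT1, an AKT1 kinase with an added myristoylation signal that holds it at the membrane and keeps it active. The HCC827-vector cells were transduced with the control vector and grown in the same medium. The series also holds the same 2 conditions of A549, another LAD line, so it has 4 RNA-sequencing libraries, with 1 library per condition. The labels give neither clone nor passage of either transduced culture, and no HCC827 library has a replicate. Differences between these 2 cultures can therefore be measured but not tested, and no p-value is given.

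AKT is the kinase that acts below phosphoinositide 3-kinase (PI3K). Active AKT phosphorylates the FOXO transcription factors and keeps them out of the nucleus, relieves the brake on the mTORC1 growth kinase, and so favours survival, nutrient uptake and protein synthesis. In EGFR-mutant lung cells the mutant receptor drives the PI3K-AKT arm and the RAS-ERK arm at once, and both arms feed back on the receptors above them.

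Each gene has 1 normalized count per library, which is its read count divided by the size factor of that library. Of the 60558 genes listed, 28330 had a read in HCC827, and the 13098 whose mean over the pair reached 50 normalized counts were kept. They include 11651 protein-coding genes and 944 lncRNA genes. The kept gene nearest to the limit was SRRM3, with a mean of 50.001, and the nearest gene left out had a mean of 49.97. A gene low in 1 library was kept only if its level in the other was high. The shares and medians of lists with many such genes therefore follow in part from this filter. Differences are given as the log2 ratio of HCC827-myr-AKT1 over HCC827-vector, without a pseudocount, and the range in brackets is a 95% Clopper-Pearson interval from the reads. After a pair of normalized counts, always HCC827-vector first, brackets give this ratio and, where shown, its interval. The interval covers counting error only. A gene is called higher or lower here when its log2 ratio is 1 or more or -1 or less, a 2-fold difference.

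The HCC827-vector library held 27312465 reads and the HCC827-myr-AKT1 library 16322183. Mitochondrial transcripts took 1.6% and 1.24% of reads and histone transcripts 0.738% and 0.172%. The labelled cell type held in both libraries, where the epithelial markers EPCAM, CDH1, KRT7 and KRT19 and the lung markers NKX2-1 and NAPSA all had at least 702 reads. EGFR took 0.708% of HCC827-vector reads and 0.0256% of A549-vector reads. Of 21 markers of blood cells, fibroblasts and endothelial cells, 8 had 0 reads in HCC827-vector and 6 in HCC827-myr-AKT1, among them CD3E, CD4, HBB, COL1A2 and CLDN5 at 0 in both. The summed level of the 21 markers was 7.91 CPM in HCC827-vector and 24.9 in HCC827-myr-AKT1. Of the 3 markers kept, CD14 (15.9 and 85.6 normalized counts, 2.43) and COL1A1 (44.5 and 179, 2.01) were higher. Their part in the differences below was not tested. Of 13 housekeeping genes, 12 lay within 2-fold and the tubulin gene TUBB was lower (-1.49). Of the 13, 11 had a log2 ratio below 0, and their median was -0.40, against -0.06 over all genes kept.

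Over the genes kept, 1344 (10.3%) had a higher and 1348 (10.3%) a lower level in HCC827-myr-AKT1 cells, and the median log2 ratio was -0.06. These shares are the background for every count of list members below. A count near them is not a result about the members. At a 4-fold difference, a log2 ratio of 2 or -2, 354 genes (2.7%) were higher and 243 (1.86%) were lower. The counting interval excluded 0 for all 1344 higher and all 1348 lower genes. The filter on the mean and the 2-fold line together fix this outcome, so it adds nothing to the calls. It lay wholly past the 2-fold line for 954 of the higher and 925 of the lower genes. In bulk RNA a lower level can come from fewer cells that express a gene or from less RNA per cell, and these cannot be told apart.

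**Figure D1:**
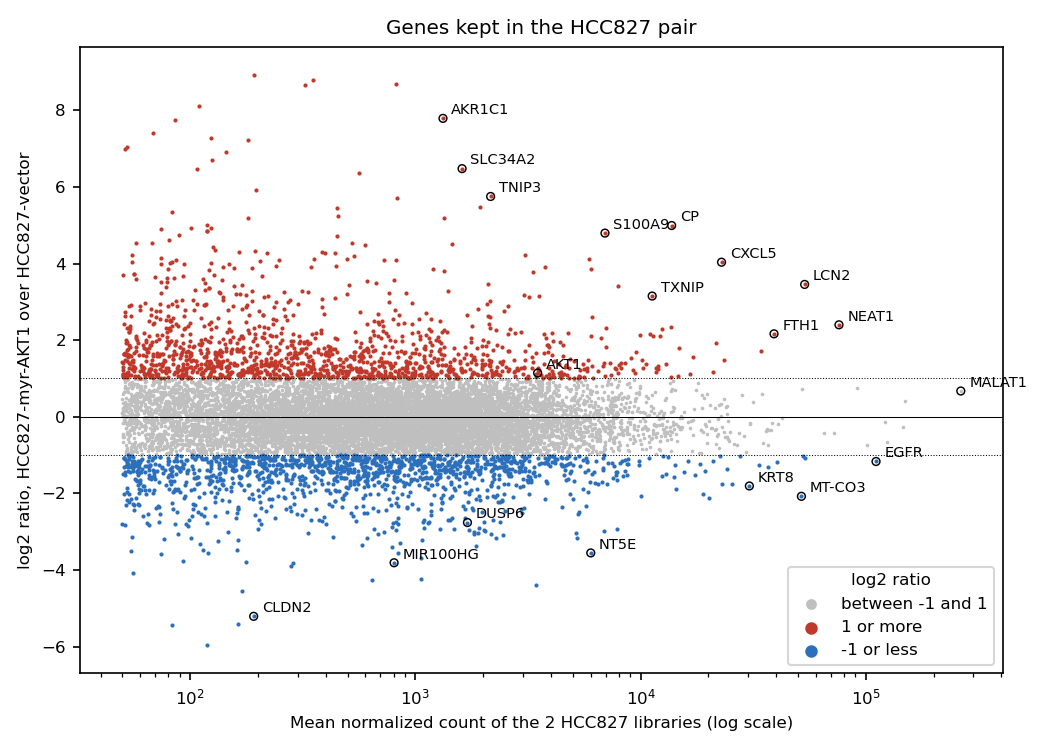
Each point is a gene kept in the HCC827 pair, with the mean normalized count of both libraries on a log x axis and the log2 ratio of HCC827-myr-AKT1 over HCC827-vector on the y axis. Red points (1 or more) and blue points (-1 or less) lie past the dotted 2-fold lines, and the largest ratios, such as 7.79 for AKR1C1 and -5.21 for CLDN2, belong to genes of low or middle level. KIT and CEACAM7, with 0 reads in HCC827-vector, are not drawn.

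The AKT1 gene itself, on chromosome 14 from 104769349 to 104795751 (GRCh38, GENCODE 44), had 2175 normalized counts in HCC827-vector and 4805 in HCC827-myr-AKT1 cells, a log2 ratio of 1.14 (1.07 to 1.21). Transcripts from the construct and from the cell's own locus share this count. AKT2 had 2433 and 2148 normalized counts (-0.18) and did not pass the 2-fold line. Beside a background of 10.3% of genes in each direction, 3 of the 27 PI3K-AKT pathway genes kept were higher and 1 was lower, with a median log2 ratio of 0.11. No PI3K subunit and none of the 10 kinases and effectors, such as MTOR and PDPK1, was past 2-fold. The other genes past 2-fold code for phosphatases and inhibitors. PIK3IP1, which binds and inhibits the PI3K catalytic subunit, went from 15.9 to 226 normalized counts (3.83, 3.16 to 4.58). DEPTOR, an inhibitor that binds mTOR, had 161 and 333 (1.05, 0.78 to 1.32). INPP4B, a lipid phosphatase that removes a product of PI3K, had 2190.2 and 1051 (-1.06, -1.17 to -0.95).

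FOXO-activated genes are background readouts of AKT, since active AKT inhibits the FOXO factors. Of 20 FOXO factors and targets kept, 6 were higher and none was lower, with a median log2 ratio of 0.49. TXNIP, an arrestin-like protein that restrains glucose uptake, had 2278 normalized counts in HCC827-vector and 20242 in HCC827-myr-AKT1 cells (3.15, 3.09 to 3.21). BCL6, a transcriptional repressor, had 581 and 3606 (2.63). INSR, the insulin receptor, had 481 and 1724 (1.84). The growth-arrest gene GADD45A (1.70), the BH3-only death gene BBC3 (1.98) and FOXO4 itself (1.65) were also higher. IRS2, CDKN1B and CCNG2, other textbook FOXO targets, had log2 ratios of -0.57, 0.28 and 0.29.

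The mutant receptor's own transcript was lower. EGFR, on chromosome 7 from 55019017 to 55211628, had 153714 normalized counts in HCC827-vector and 68423 in HCC827-myr-AKT1 cells, a log2 ratio of -1.17 (-1.18 to -1.15). No other gene kept was lower by as many normalized counts. The genes beside it on the chromosome did not share the difference as a block. SEC61G, a subunit of the protein translocation channel, had 23640.5 and 24846 (0.07), and VOPP1 had 32409 and 28576 (-0.18). LANCL2 (-0.84) and MRPS17 (-1.0) lay lower, and over the 11 neighbours kept the median was -0.27, with 1 past the 2-fold line. ERBB2 and ERBB3, the receptors that pair with EGFR, had log2 ratios of 0.07 and 0.56, and ERBB4 was not kept.

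Of 11 ERBB ligands, 4 fell under the limit on the mean. Of the 7 kept, 3 were lower and 1 was higher, against 10.3% of all genes kept in each direction. Epiregulin, EREG, had 13517 normalized counts in HCC827-vector and 6085 in HCC827-myr-AKT1 cells (-1.15, -1.20 to -1.11). Betacellulin, BTC, had 513 and 245 (-1.06), and neuregulin-1, NRG1, the ligand of ERBB3 and ERBB4, had 801 and 357 (-1.16). EGF itself was higher, with 157 and 413 (1.39, 1.13 to 1.65). Amphiregulin, AREG, had 4554 and 3169.7 (-0.52), short of 2-fold. None of the 4 inhibitors of the receptors kept, which include ERRFI1 and LRIG1, was past 2-fold.

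The other receptor tyrosine kinases divided. Of 35, 14 fell under the limit on the mean. Of the 21 kept, 5 (23.8%) were higher and 3 (14.3%) were lower, against 10.3% of all genes kept in each direction. KIT was kept only for its level in HCC827-myr-AKT1 cells, so the share of higher genes follows in part from the filter. KIT, the receptor of stem cell factor, on chromosome 4 from 54657267 to 54740783, had 0 reads in HCC827-vector and 362 reads, or 456 normalized counts, in HCC827-myr-AKT1 cells. Against a floor of 3 reads it was at least 191-fold higher. ROS1, a receptor kinase that fusions activate in some LAD, had 339 and 1998 (2.56, 2.41 to 2.72). The collagen receptor DDR1 had 2716 and 6157 (1.18), and the ephrin receptor EPHB3 60.4 and 155 (1.36). ROR1, a receptor of WNT5A, was lower, with 943 and 143 (-2.72, -3.01 to -2.44). MST1R (-1.21) and MERTK (-1.08) were lower by about 2-fold. MET, which can replace EGFR signalling in EGFR-mutant cells, had 43203 and 26923 (-0.68), and IGF1R had 2065 and 3899 (0.92), neither past the 2-fold line.

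Genes that the RAS-ERK arm drives were lower in part. Of 24 kept, 6 (25%) were lower and 1 (4.2%) was higher, against 10.3% of all genes kept in each direction. Their median log2 ratio was -0.41. DUSP6, the phosphatase that ERK induces to shut itself off, had 2968 normalized counts in HCC827-vector and 438 in HCC827-myr-AKT1 cells (-2.76, -2.92 to -2.60). FOSL1, an AP-1 subunit stabilised by ERK, had 1296 and 159.8 (-3.02, -3.29 to -2.76). ETV1, an ETS factor, had 1393 and 189 (-2.88). SPRY4 (-1.17), PHLDA1 (-1.14) and cyclin D1, CCND1 (-1.07), were nearer to 2-fold lower. DUSP1, a phosphatase that stress also induces, was the member that was higher, with 141 and 435 (1.62). DUSP4, SPRY2 and MYC had log2 ratios of -0.59, -0.40 and -0.20.

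**Figure D2:**
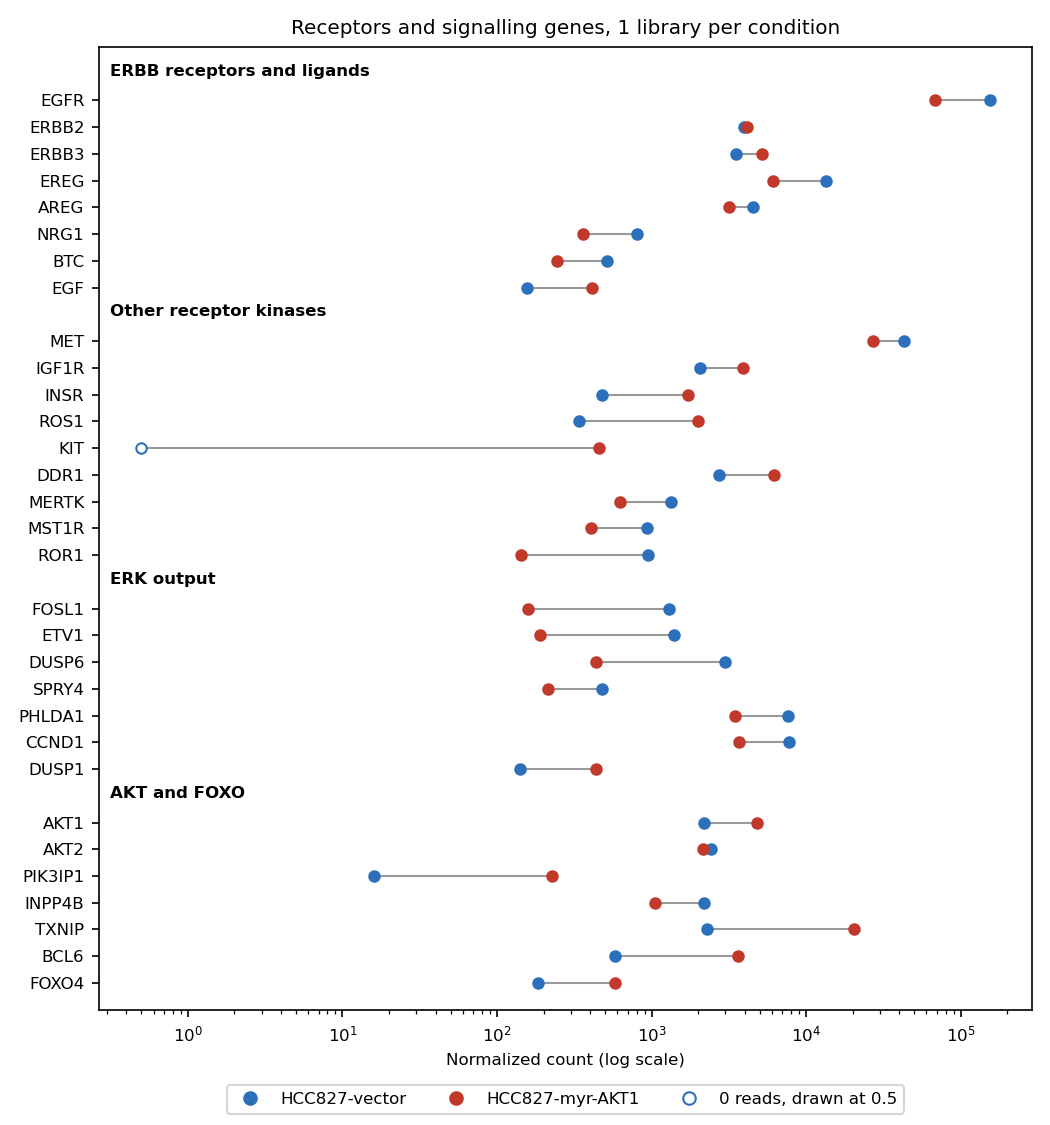
Normalized counts (log x axis) of receptor, ligand, ERK output and AKT pathway genes, with a blue point for HCC827-vector, a red point for HCC827-myr-AKT1 and a line between them, and 1 library per condition. Red lies left of blue for EGFR, EREG, ROR1, DUSP6, FOSL1 and ETV1 and right of it for KIT, ROS1, INSR and TXNIP, and the open point marks the 0 reads of KIT.

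Lists of inflammation and mucosal defence genes had the highest medians of the lists of cellular processes. Of 42 cytokine and chemokine genes, 20 fell under the limit on the mean. Of the 22 kept, 16 were higher and 1 was lower. Their median log2 ratio was 1.99, where -0.06 was the median over all genes kept. Of 19 chemokine genes, 9 fell under the limit, and of the 10 kept 9 were higher. CXCL17 was kept only for its level in HCC827-myr-AKT1 cells. These shares and the median therefore follow in part from the filter. CXCL5, a chemokine that attracts neutrophils, had 2631 normalized counts in HCC827-vector and 43137 in HCC827-myr-AKT1 cells (4.04, 3.98 to 4.09). CXCL8, or interleukin-8, had 647 and 11214 (4.12, 4.01 to 4.22), and CXCL1 had 346 and 3848 (3.47, 3.33 to 3.62). CXCL1, CXCL2 and CXCL3 are near-identical copies, so how reads were shared among them is uncertain. CCL20, which recruits cells through CCR6, had 55.6 and 1017 (4.19). CXCL17, a mucosal chemokine, had 1 read in HCC827-vector and 383 normalized counts in HCC827-myr-AKT1 cells (8.91, 6.42 to 14.22). The interleukin-1 genes IL1B (469 and 7084, 3.92) and IL1A (156 and 2249, 3.85) were higher too. IL23A had a log2 ratio of 2.91, IL6 1.49 from 54.0 and 152 normalized counts, and LIF 1.28. IL18, which cells store as an inactive precursor, was lower, with 567 and 200.1 (-1.5).

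NF-kB is the transcription factor family that many of these genes share in textbooks, and it induces its own inhibitors. All 22 genes of the NF-kB list were kept, and 10 were higher and none was lower (median 0.86). TNIP3, which binds the inhibitor A20, had 78.7 normalized counts in HCC827-vector and 4238 in HCC827-myr-AKT1 cells (5.75, 5.46 to 6.05). TNFAIP3, which codes for A20, had 414 and 1818 (2.13), and ICAM1, an adhesion receptor for leukocytes, 4599 and 19684 (2.10). Among the 5 subunit genes only RELB was past 2-fold (1.03), and NFKBIA, the main inhibitor, had 3161 and 5305 (0.75).

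The sequence just before these genes can be read from RefSeq. RefSeq windows of 250 bases before the gene start (GRCh38.p14) matched 10052 of the genes kept. The kB-like letters are GGGA and TTCC with any 2 bases between them, searched on both strands. They were present in 5 of 16 of the cytokine and chemokine genes with a window and in 5 of 19 of the NF-kB list. Of the genes with the letters, all 5 of the cytokine and chemokine list were past 2-fold, but only 1 of the NF-kB list was, TNFAIP3. Over all genes kept they were present in 1.38%, and in 2.26% of the genes called higher and 1.41% of those called lower. The stretches below show the match in capitals for the 3 members of each list with the highest log2 ratios that hold one. They run 5′ to 3′ on the gene's own strand.
CXCL5, chr4:73998749-73998778 (minus strand): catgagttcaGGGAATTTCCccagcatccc
CXCL3, chr4:74038749-74038778 (minus strand): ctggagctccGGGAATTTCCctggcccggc
CXCL1, chr4:73869289-73869348 (plus strand): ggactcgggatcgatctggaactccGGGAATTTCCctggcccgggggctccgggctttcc
TNFAIP3, chr6:137867182-137867211 (plus strand): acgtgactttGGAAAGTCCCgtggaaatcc
NFKBIA, chr14:35404796-35404855 (minus strand): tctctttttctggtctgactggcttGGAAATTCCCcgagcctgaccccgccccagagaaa
NFKBIZ, chr3:101827757-101827786 (plus strand): tttttggtctGGGAATTTCCagtgtgcaga
The CXCL1, CXCL3 and CXCL5 stretches hold the same 10 letters within 70 to 91 bases of the gene start. A match is a description of the letters and not a measured binding site.

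Acute-phase and complement genes, the products of liver and barrier epithelia during inflammation, were also higher in part. Of 39 genes, 14 fell under the limit on the mean. Of the 25 kept, 16 were higher and none was lower, with a median of 2.19. This share and median follow in part from the filter. LCN2, or lipocalin-2, which withholds iron from bacteria, had 8948 normalized counts in HCC827-vector and 98129 in HCC827-myr-AKT1 cells (3.46, 3.43 to 3.48), and only NEAT1 and MALAT1 were higher by more counts. Ceruloplasmin, CP, the copper-carrying ferroxidase, had 837 and 26647 (4.99, 4.90 to 5.08). Complement C3 had 85.0 and 3794 (5.48, 5.20 to 5.77), and C4BPA, which restrains complement, 451 and 6239 (3.79). The fibrinogen chains FGB (3703 and 16169, 2.13) and FGG (2.99) and the protease inhibitor SERPINA3 (4.86) were higher. SAA1 (2.96) and SAA2 (2.79) are near-identical and share reads. LBP, the lipopolysaccharide-binding protein, had 1 read in HCC827-vector and 219 normalized counts in HCC827-myr-AKT1 cells (8.11, 5.61 to 13.42). Of the 7 complement regulators only C4BPA was past 2-fold, and CD59 and CD46 had 0.75 and 0.13.

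Of 18 secretory and mucosal defence genes, 7 fell under the limit on the mean. Of the 11 kept, 9 were higher and none was lower (median 4.51), which follows in part from the filter. S100A9, a subunit of the antimicrobial protein calprotectin, had 483 normalized counts in HCC827-vector and 13414 in HCC827-myr-AKT1 cells (4.79, 4.68 to 4.92). Its partner S100A8 had 2 reads in HCC827-vector and 702 normalized counts in HCC827-myr-AKT1 cells (8.79, 6.93 to 11.84). The elastase inhibitor SLPI had 312 and 5799.5 (4.22), and PIGR, the receptor that carries IgA across epithelium, 123 and 2799.7 (4.51). The defensins DEFB4A (71.5 and 2619, 5.19) and DEFB1 (23.0 and 879.6, 5.25) were also higher, and DEFB4A has a near-identical copy. CEACAM6 had 2181 and 2147 (-0.02) beside 3.17 for CEACAM5. Of 15 mucin genes, 8 fell under the mean. Of the 7 kept, 6 were higher, among them MUC1 (2.41), MUC4 (1.96) and MUC16 (12870.5 and 29199, 1.18). The gel-forming mucin MUC5AC was lower (219 and 98.1, -1.16).

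Interferon-stimulated genes, which interferons induce through their receptors, were higher in part. Of 48 kept, 19 (39.6%) were higher and none was lower, against 10.3% of all genes kept in each direction. Their median was 0.82. Of the 48, 35 are antiviral effectors, and 17 of these were higher. GBP5 and TRIM22 were kept only for their level in HCC827-myr-AKT1 cells, so these shares follow in part from the filter. IFITM1, which blocks viral entry, had 125 normalized counts in HCC827-vector and 1487 in HCC827-myr-AKT1 cells (3.58, 3.33 to 3.82). IFITM1 has close copies in IFITM2 and IFITM3. OAS2, an RNA sensor, had 97.0 and 1129 (3.54), and TRIM22 19.9 and 875 (5.46, 4.89 to 6.10). The GTPase gene GBP5 had 3 reads in HCC827-vector and 359.9 normalized counts in HCC827-myr-AKT1 cells (7.24, 5.68 to 9.52). MX1 had a log2 ratio of 1.55, ISG15 0.82 and IFIT1 1.07. SAMD9 (4895 and 2459, -0.99) and SAMD9L (-0.94) lay on the other side, just short of 2-fold lower. None of the 7 interferon genes on the list was kept, and of the 6 receptor genes only IFNLR1, the receptor chain of type III interferons, was past 2-fold (199 and 94.4, -1.07). STAT2 had 1686 and 3862 (1.20) and STAT3 4769.9 and 11595 (1.28). Of the 16 genes of IL6-family receptors and STAT3 signalling kept, 6 were higher and 2 were lower, and the shared receptor chain IL6ST was lower (8759 and 3959.9, -1.15).

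Antigen presentation genes were higher in part, with a median of 2.79 for class II, 1.25 for class I chains and 0.04 for peptide supply and loading. Of 25 kept, 12 were higher and none was lower (median 0.87). Of 6 class I chain genes, 4 were higher, with HLA-B at 839 and 2308 normalized counts (1.46) and HLA-E at 1.62. Of 13 class II genes, 6 fell under the limit on the mean. Of the 7 kept, 6 were higher. HLA-DMB, a chain of the loader that places peptides on class II, had 38.1 and 668 (4.13, 3.70 to 4.59), HLA-DRA 20.7 and 154 (2.89), the invariant chain CD74 12.7 and 145 (3.51) and their activator CIITA 105 and 255 (1.28). HLA-DMB, HLA-DRA and CD74 lay under that limit in HCC827-vector and were kept for their level in HCC827-myr-AKT1 cells. The class II share and median therefore follow in part from the filter. HLA genes are alike and vary between people, so their reads are split with uncertainty. Of 12 genes of peptide supply, TAP1 (1.55) and TAPBP (1.23) were past 2-fold. Of 10 immune checkpoint genes kept, 1 was higher and 1 was lower, near the 10.3% of all genes kept in each direction. VTCN1, or B7-H4, was higher (45.3 and 400.1, 3.14). NT5E, the CD73 enzyme that makes adenosine, was lower (11077 and 942, -3.55, -3.66 to -3.45). CD274, or PD-L1, had 454 and 677 (0.58).

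The ISRE-like letters, GAAA repeated after any 2 bases, the pattern that interferon factors read, stood in the windows of 20 of 36 interferon-stimulated genes and 7 of 19 antigen presentation genes, and in 2.34% of all genes kept with a window. Among the genes called higher the share was 2.88% and among those called lower 2.22%. Of the 20 interferon-stimulated genes with the letters, 6 were called higher. The highest members of each list that hold the letters are shown, with the match in capitals.
IFITM1, chr11:313990-314019 (plus strand): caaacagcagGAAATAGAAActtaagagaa
IFI6, chr1:27672314-27672373 (minus strand): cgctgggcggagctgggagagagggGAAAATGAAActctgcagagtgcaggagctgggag
IFI27, chr14:94110603-94110662 (plus strand): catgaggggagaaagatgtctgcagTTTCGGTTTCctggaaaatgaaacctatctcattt
HLA-F, chr6:29723268-29723297 (plus strand): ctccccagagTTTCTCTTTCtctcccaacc
TAP1, chr6:32853819-32853848 (minus strand): aggcggccgcTTTCGATTTCgctttcccct
TAPBP, chr6:33314079-33314108 (minus strand): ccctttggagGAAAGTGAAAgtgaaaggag
The IFITM1 and TAPBP matches lie nearest to the gene start.

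**Figure D3:**
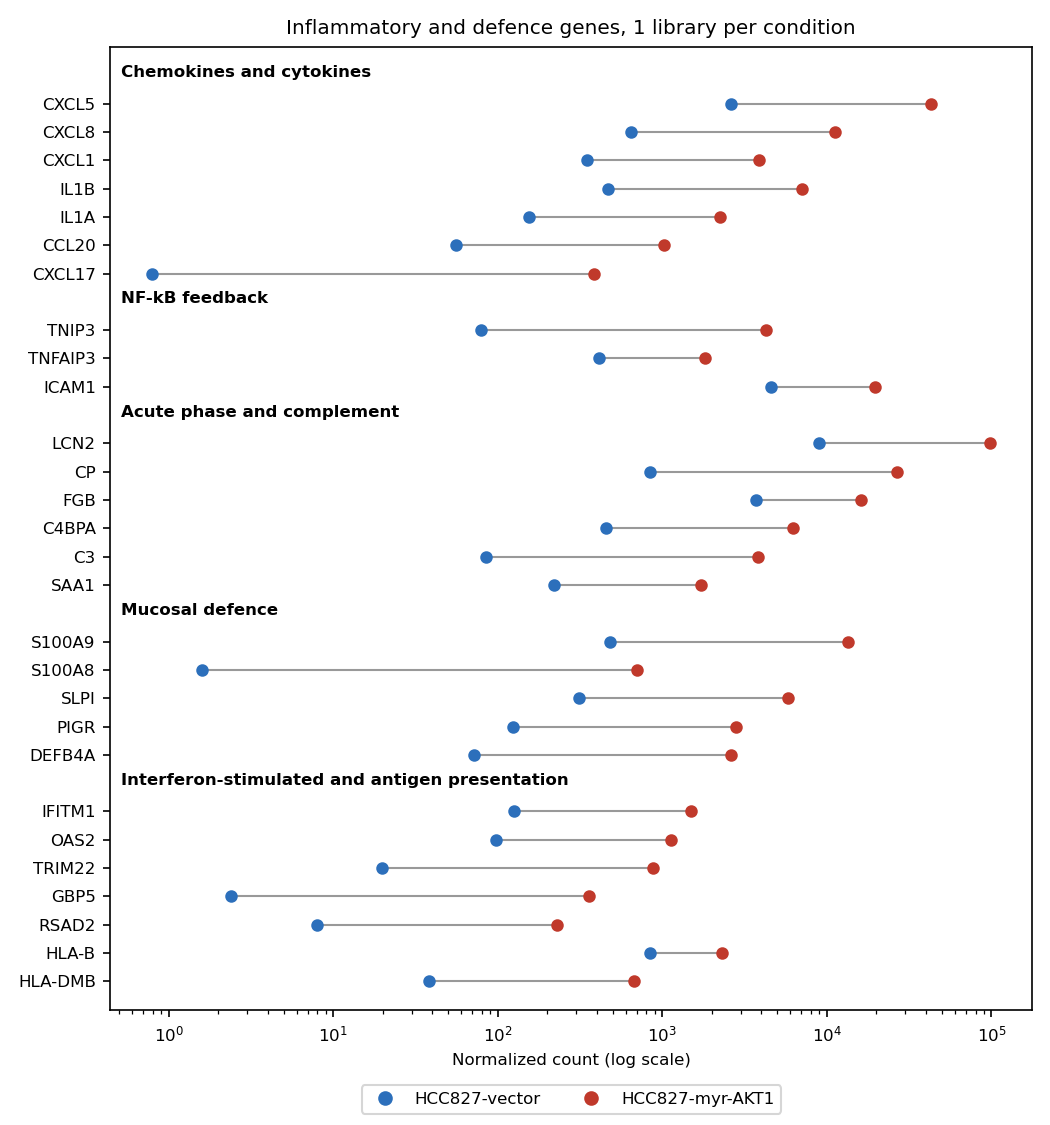
Normalized counts (log x axis) of inflammatory, acute-phase, mucosal, interferon-stimulated and antigen presentation genes, with HCC827-vector in blue, HCC827-myr-AKT1 in red and 1 library per condition. Red lies right of blue in every gene drawn, by 4.04 on the log2 scale for CXCL5 and 3.46 for LCN2, and CXCL17, S100A8 and GBP5 start from 1 to 3 reads.

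Part of the redox defence genes were higher. Of 27 NRF2 targets and regulators kept, 12 were higher and none was lower, with a median of 0.94. NRF2 is the factor that induces antioxidant enzymes when KEAP1 releases it, and its own gene NFE2L2 had 2755 and 4233 normalized counts (0.62). The aldo-keto reductase AKR1C1 had 11.9 in HCC827-vector and 2639.9 in HCC827-myr-AKT1 cells (7.79, 7.07 to 8.63), and AKR1B10 had 715 and 6391 (3.16, 3.06 to 3.26). AKR1C1, AKR1C2 and AKR1C3 are close copies, as are AKR1B10 and AKR1B15, and reads may be shared between them. FTH1, the heavy chain of the iron store ferritin, had 14270.0 and 64002 (2.17, 2.14 to 2.19), a gene with many pseudogenes. Transketolase, TKT, of the pentose phosphate pathway had 12407 and 34636 (1.48), and the glutathione peroxidase GPX2 891 and 4368 (2.29). NQO1, SLC7A11 and TXNRD1, other standard targets, had 0.13, 0.44 and 0.56.

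The amino acid response lay on the same side. Of 24 ATF4 targets kept, 12 were higher and none was lower (median 1.0). DDIT3, the stress factor CHOP, had 197 normalized counts in HCC827-vector and 1115 in HCC827-myr-AKT1 cells (2.50, 2.3 to 2.71), and ATF3 had 79.5 and 457 (2.52, 2.20 to 2.86). CHAC1, which breaks down glutathione, had a log2 ratio of 2.27. The asparagine synthetase ASNS had 70.7 and 233 (1.72), and SLC7A5, a carrier of large amino acids, 5885 and 15228 (1.37). ATF4 itself had 6287 and 8623 (0.46). PSPH, a serine synthesis gene that lies near EGFR, had 3646 and 2089 (-0.80), against 1.63 for PHGDH, the first enzyme of that pathway. The CARE-like letters TGATGNAA, at which ATF4 and C/EBP factors bind in textbooks, were in the windows of 3 of 21 of these genes and of 1.38% of all genes kept, and the 3 are shown.
ATF3, chr1:212565191-212565248 (plus strand): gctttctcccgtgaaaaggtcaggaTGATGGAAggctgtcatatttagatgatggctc
CHAC1, chr15:40953252-40953279 (plus strand): tcccctgccgTTGCATCActcctgccag
ASNS, chr7:97872459-97872486 (minus strand): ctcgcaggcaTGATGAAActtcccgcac
Of 21 ER stress genes, 5 (23.8%) were higher and none was lower, against 10.3% of all genes kept in each direction. HSPA5, the chaperone BiP, had 8657 and 25682 (1.57), ERN1, the IRE1 sensor, 2.29 and HERPUD1 1.83. Of 23 lysosome and autophagy genes, 6 (26.1%) were higher, against the same background. They were led by WIPI1 (32.6 and 861, 4.72), the starting kinase ULK1 (229.7 and 1356, 2.56) and GABARAPL1 (2.10). The cargo receptor SQSTM1 had 3899 and 8998 (1.21).

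Proliferation genes were lower almost throughout. Of 51 kept, 46 were lower and none was higher, with a median log2 ratio of -1.58. Among 23 replication genes 22 were lower (median -1.97), and among 28 mitosis genes 24 were lower (median -1.37). UHRF1, which copies DNA methylation onto new strands, had 1961 normalized counts in HCC827-vector and 152 in HCC827-myr-AKT1 cells (-3.69, -3.96 to -3.42). MCM2, a subunit of the replicative helicase, had 4945 and 937 (-2.40), and PCNA, the polymerase clamp, 3669 and 861 (-2.09). TOP2A, the topoisomerase of dividing cells, had 30257 and 7527 (-2.01, -2.05 to -1.97). ASPM, a spindle pole gene, had 9256 and 1122 (-3.04), and MKI67, the Ki-67 antigen, 11542 and 4214 (-1.45). The highest log2 ratio of any member was -0.63.

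A pair of textbook promoter patterns of the cell cycle were searched after the values had been seen. The CHR letters TTTGAA were in the windows of 13 of 22 of the mitosis genes and 1 of 20 of the replication genes. The E2F-like letters TTTCCCGC were in 7 of 20 of the replication genes and 1 of 22 of the mitosis genes. Over all genes kept the shares were 8.49% and 2.27%, and over the genes called lower 15.1% and 2.83%. Matches in the lowest members are shown in capitals, CHR first.
ASPM, chr1:197146752-197146807 (minus strand): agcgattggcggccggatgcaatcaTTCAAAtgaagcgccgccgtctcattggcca
HMMR, chr5:163460594-163460619 (plus strand): tgtggggagaTTTGAAtttgaaaccg
ANLN, chr7:36389826-36389851 (plus strand): ggcgctgaaaTTCAAAtttgaacggc
UHRF1, chr19:4909477-4909500 (plus strand): ccgagttttcGCGGGAAAaaaatc
GINS2, chr16:85688955-85689010 (minus strand): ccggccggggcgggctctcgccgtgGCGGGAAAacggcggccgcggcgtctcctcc
PCNA, chr20:5126649-5126706 (minus strand): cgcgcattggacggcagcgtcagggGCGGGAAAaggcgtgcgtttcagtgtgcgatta
The CHR matches of HMMR and ANLN lie within 21 to 28 bases of the gene start, and in both stretches a further TTTGAA follows directly.

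Among cell cycle regulators, of 21 kept 8 (38.1%) were lower and 3 (14.3%) were higher, against 10.3% of all genes kept in each direction. CDKN1A, the p21 inhibitor, had 82.7 normalized counts in HCC827-vector and 691 in HCC827-myr-AKT1 cells (3.06, 2.76 to 3.38). CDK4 had 47490.0 and 19954 (-1.25), CDK6 8302 and 3039 (-1.45) and cyclin E2, CCNE2, 687 and 141 (-2.29). Cyclin D3, CCND3, was higher (395 and 1072, 1.44) while cyclin D1 was lower, as given above with the ERK genes. Of 25 p53 targets kept, 6 (24%) were higher and 1 (4%) was lower, with GDF15, a stress cytokine, at 469 and 3830.3 (3.03) and MDM2 at 0.27. Of 16 BCL2-family genes, 4 (25%) were higher, and BMF, a BH3-only gene, had 633 and 4301 (2.76, 2.65 to 2.88).

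Histone genes were lower as a block. By symbol, 55 replication-dependent histone genes on chromosomes 1 and 6 were kept, and 52 of them were lower and none was higher, with a median of -2.51 and a range from -3.56 to 0.43. H1-4, a linker histone, had 11478 and 4004 normalized counts (-1.52), and H3C2 4367 and 512 (-3.09). These transcripts end in a stem-loop and lack a poly(A) tail, and the copies are near-identical. The 4 small structured RNAs without a tail that were kept lay within 2-fold (median 0.17), with RN7SL1 at 127816 and 170787 (0.42). How the RNA was selected is given in 2 ways by the sources, and its part in the histone values was not tested.

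Ribosome biogenesis genes were lower in part and ribosomal protein genes stayed within 2-fold. Of 20 biogenesis genes kept, 10 were lower and none was higher, with a median of -1.01. Nucleolin, NCL, had 21126 normalized counts in HCC827-vector and 7117 in HCC827-myr-AKT1 cells (-1.57, -1.61 to -1.53), and NOP56, of the snoRNA complexes, 4887 and 1555 (-1.65). All 74 ribosomal protein genes lay within 2-fold, with a median of -0.30 and a range from -0.81 to 0.12. Of 15 snoRNA host lncRNAs, 4 (26.7%) were lower, among them SNHG5 (-1.45) and DANCR (-1.36). The share of lower genes was 10.3% over all genes kept and 14.9% over the lncRNA genes kept.

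**Figure D4:**
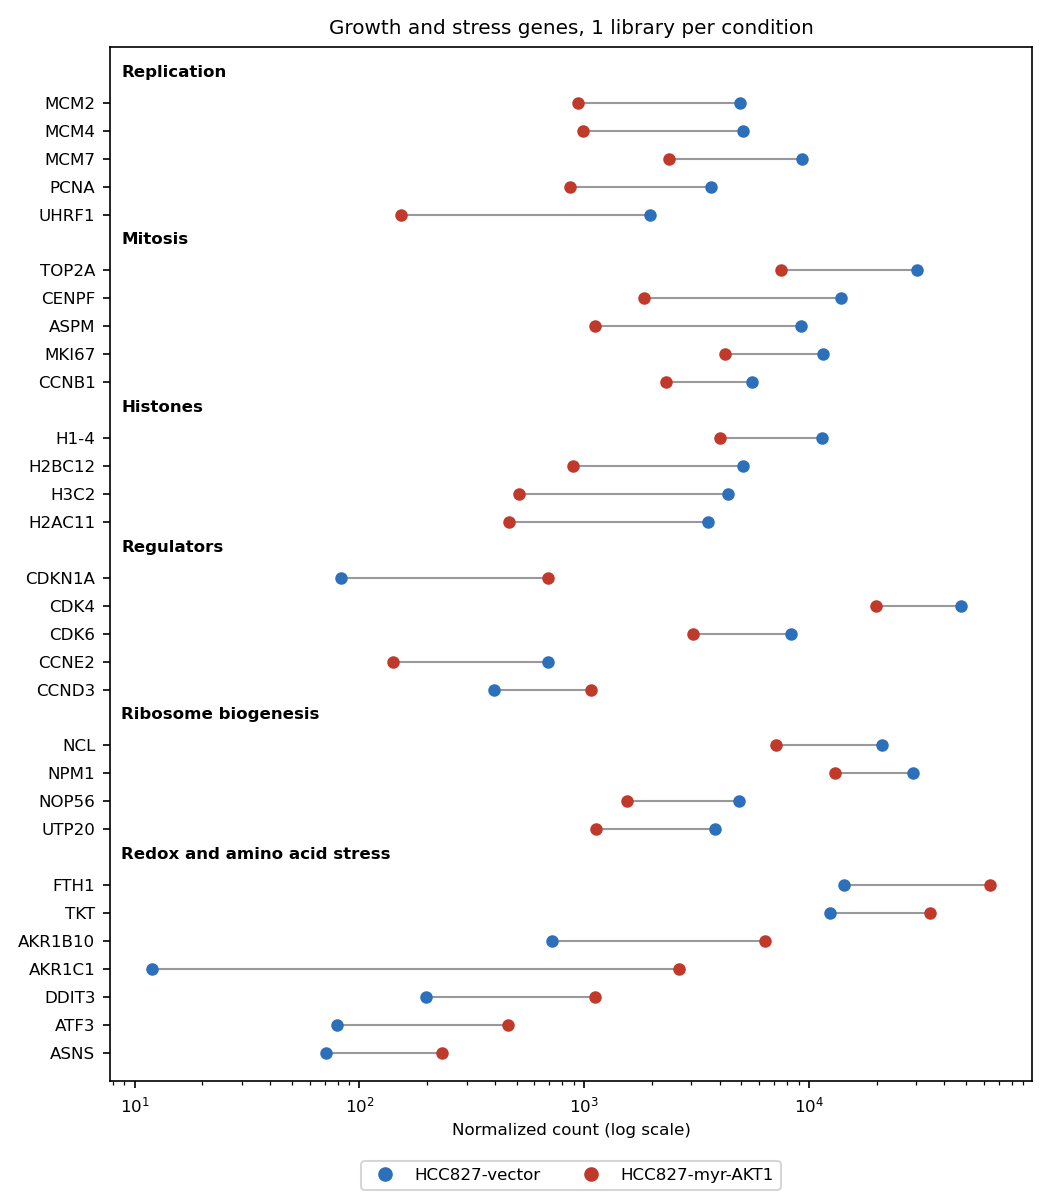
Normalized counts (log x axis) of replication, mitosis, histone, regulator, ribosome biogenesis and stress genes, with HCC827-vector in blue, HCC827-myr-AKT1 in red and 1 library per condition. Red lies left of blue in every replication, mitosis, histone and ribosome biogenesis gene drawn and right of it for CDKN1A, CCND3 and all 7 stress genes.

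Few epithelial junction genes passed 2-fold. Of 35 junction genes kept, 1 (2.9%) was higher and 2 (5.7%) were lower, against 10.3% of all genes kept in each direction. Their median was 0.11. CLDN2, a claudin that forms cation pores, had 373 normalized counts in HCC827-vector and 10.1 in HCC827-myr-AKT1 cells (-5.21, -6.43 to -4.22). The desmosomal cadherin DSC2 had 3272 and 1494 (-1.13), and TJP3, a tight junction scaffold, 549.9 and 1645 (1.58). None of the 12 adherens junction and identity genes, EPCAM and CDH1 among them, was past 2-fold. The paired keratins of simple epithelium were lower, KRT8 from 47313 to 13519 (-1.81, -1.84 to -1.78) and KRT18 from 39094 to 11592 (-1.75, -1.79 to -1.72), whereas KRT7 had -0.35 and KRT19 -0.75. KRT20 (90.6 and 390.1, 2.11) and KRT6A (14.3 and 112, 2.97) were higher. Of 16 mesenchymal genes, 6 fell under the limit on the mean. Of the 10 kept, 4 were higher and 1, ZEB1, was lower (-1.29), against 10.3% of all genes kept in each direction. The 10 together had only 865 normalized counts in HCC827-vector, and these shares follow in part from the filter. TAGLN had a log2 ratio of 1.78 and ACTA2 of 2.36, and vimentin, VIM, had 208 and 218 (0.06).

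Matrix and adhesion genes went both ways. Of 44 extracellular matrix genes, 21 fell under the limit on the mean, so the shares follow in part from the filter. Of the 23 kept, 8 (34.8%) were higher and 3 (13%) were lower, against 10.3% of all genes kept in each direction. The lower ones are matricellular glycoproteins. TNC had 28061 normalized counts in HCC827-vector and 10483 in HCC827-myr-AKT1 cells (-1.42, -1.46 to -1.39), THBS1 1359.8 and 287 (-2.24) and THBS2 342 and 91.9 (-1.90). Perlecan, HSPG2, had 443 and 1851 (2.06) and agrin, AGRN, 2446 and 5641 (1.21). Among the integrins, the collagen receptor chain ITGA2 was lower (8952 and 1549, -2.53, -2.62 to -2.45), as were the laminin receptor chains ITGA6 (-1.67) and ITGA3 (17878 and 8668, -1.04). The fibronectin receptor chain ITGA5 was higher (2607 and 10777, 2.05), and LAMB3 was too (4019.7 and 10579, 1.40). ITGB1, their shared partner, had -0.38. Of 40 matrix proteases and inhibitors, 19 fell under the limit on the mean. Of the 21 kept, 8 (38.1%) were higher and 2 (9.5%) were lower. MMP13 had 35.0 and 319.6 (3.19) and was kept only for its level in HCC827-myr-AKT1 cells, so the share of higher genes follows in part from the filter. SPINT1 had 2.11 and the plasminogen activator PLAU 12077 and 5583 (-1.11). Of 26 TGF-beta and BMP pathway genes 4 (15.4%) were higher, with BMP2 at 2.50, and no receptor or SMAD was past 2-fold. Of 17 Notch pathway genes, 8 fell under the limit on the mean. Of the 9 kept 2 (22.2%) were higher, with NOTCH3 at 539 and 2051 (1.93).

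Lung lineage genes lay on both sides. Of 31, 13 fell under the limit on the mean. Of the 18 kept, 6 (33.3%) were higher and 2 (11.1%) were lower (median 0.35), against 10.3% of all genes kept in each direction. SLC34A2 was kept only for its level in HCC827-myr-AKT1 cells, so the share of higher genes follows in part from the filter. SLC34A2, the phosphate carrier of alveolar type 2 cells, had 35.8 normalized counts in HCC827-vector and 3189 in HCC827-myr-AKT1 cells (6.48, 6.05 to 6.94). LAMP3, of lamellar bodies, had 50.1 and 316 (2.66) and SOX2, a proximal airway factor, 1476 and 6102 (2.05). LPCAT1, which makes surfactant lipid, was lower (35095 and 13539, -1.37, -1.40 to -1.34), as was HNF4G (2608 and 899.7, -1.54). NKX2-1, the lineage factor of the distal lung, had 1584 and 883 (-0.84), and FOXA1 had 1.39. The surfactant protein genes SFTPA1, SFTPB and SFTPC were not kept.

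In metabolism, the shares of genes past 2-fold were near or under the 10.3% of all genes kept in each direction. Of 40 glycolysis and HIF genes kept, 2 (5%) were lower and 3 (7.5%) were higher (median -0.20). Both lower ones were among the 19 genes of glucose uptake and glycolysis. ENO1, an enolase, had 73198 normalized counts in HCC827-vector and 34462 in HCC827-myr-AKT1 cells (-1.09, -1.11 to -1.07), and PKM, pyruvate kinase, 70279 and 34496 (-1.03, -1.05 to -1.01). The glucose carrier SLC2A1 had 4912 and 2997 (-0.71) and hexokinase HK2 -0.26. The members called higher, LOX (3.05), ADM (2.41) and CA12 (1.70), are HIF targets outside glycolysis. Of 42 cholesterol and fatty acid genes kept, 2 (4.8%) were higher and 2 (4.8%) were lower. ACSS2, which makes acetyl-CoA from acetate, had 873 and 3347 (1.94) and the elongase ELOVL6 2317 and 830.5 (-1.48). No cholesterol enzyme passed 2-fold. Of 28 nuclear respiratory chain genes only TFAM (3.6%), the mitochondrial DNA packaging factor, did (2394 and 966, -1.31).

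The 15 genes of the mitochondrial genome, which are cut from shared precursor transcripts, differed among themselves. MT-CO3 had 83736 normalized counts in HCC827-vector and 19845 in HCC827-myr-AKT1 cells (-2.08, -2.10 to -2.05), and MT-CO2 55941 and 24870.4 (-1.17). The ribosomal RNA genes MT-RNR2 (16112 and 52675, 1.71) and MT-RNR1 (1.41) and the subunit gene MT-ND5 (5348 and 14869, 1.48) were higher. In all 4 were higher and 3 were lower.

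Outside the lists, the ends of the ranking among protein-coding genes held several secreted and membrane proteins. ABCA13, a lipid transporter, had 3.97 normalized counts in HCC827-vector and 1632 in HCC827-myr-AKT1 cells (8.68, 7.46 to 10.31). S100P, a calcium-binding protein, had 13.5 and 1106 (6.36), and UBD, a ubiquitin-like protein, 1 read and 171 normalized counts (7.75, 5.25 to 13.06). INHBE, RNASE1 and SLC6A14 also stood among the 20 highest, each from 3 reads or fewer in HCC827-vector. CEACAM7 had 0 reads in HCC827-vector and 242 normalized counts in HCC827-myr-AKT1 cells, at least 101-fold higher against 3 reads. At the other end, CAPN8, a calpain protease, had 1215 and 62.9 (-4.27, -4.71 to -3.87), FAM111B 2009 and 107 (-4.23) and the glycosyltransferase B3GALT5 532 and 37.7 (-3.82). IL1RAPL1 (163 and 3.77, -5.43, -7.72 to -3.86) and CCDC198 (319 and 7.55, -5.40) had the lowest ratios of protein-coding genes. Of the 20 lowest, 6 are histone genes. Among abundant genes, IGFBP3, which binds insulin-like growth factors, was higher (8945 and 34203, 1.94, 1.90 to 1.97) and the membrane protein gene DCBLD2 lower (32661 and 7492, -2.12).

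Among the 944 lncRNA genes kept, 122 (12.9%) were higher and 141 (14.9%) were lower. NEAT1, the scaffold of nuclear paraspeckles, had 24214 normalized counts in HCC827-vector and 127870.0 in HCC827-myr-AKT1 cells (2.40, 2.38 to 2.42). MALAT1, its neighbour on chromosome 11, had the largest difference in counts upward of any gene kept, from 203767 to 324745, but short of 2-fold (0.67). MIR3142HG, the host gene of miR-146a, had 85.8 and 934 (3.44, 3.15 to 3.75), and MIR205HG 97.0 and 901 (3.22). MIR100HG, the host of miR-100, let-7a and miR-125b, was lower (1502 and 107, -3.81, -4.14 to -3.50), as were MANCR (172 and 12.6, -3.78) and MIR31HG (298 and 103, -1.53). LINC03078 and STAU2-AS1 had the highest log2 ratios, each from 3 reads in HCC827-vector. Values of antisense genes rest on strand-specific counting.

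Along the genome, most differences did not lie in blocks. Chromosome medians ran from -0.24 on chromosome 13 to 0.10 on chromosome 19. Of 897 windows of 2 Mb with at least 5 genes kept, 4 had a median log2 ratio of 1 or more and 10 had -1 or less. The lowest was the histone cluster on chromosome 6, from 26000001 to 28000000, where 46 of 62 genes kept were lower (median -2.38). The highest was on chromosome 4, from 72000001 to 74000000, with CXCL8, CXCL1 and CXCL5 among its 6 genes kept (median 1.72). Grouped by the letters that open their symbols, 201 families had at least 8 genes kept, a grouping made after the values had been seen. The AKR family had the highest median (2.88) and the HLA family the next (1.94), and the MCM (-1.88), NOP (-1.06) and SRSF (-1.03) families had the lowest. SRSF genes code for splicing factors, and 6 of 12 were lower and none was higher.

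A549 gives the same contrast in another LAD line, with its own 2 libraries, scaled apart from the HCC827 pair. Of 12053 genes kept in both pairs, 1002 (8.31%) were higher and 950 (7.88%) were lower in A549-myr-AKT1 cells. Of the 1094 genes of this set called higher in HCC827, 377 (34.5%) were higher in A549 too, which is 37.6% of the A549 genes. Of the 1184 called lower in HCC827, 494 (41.7%) were lower in A549, or 52% of the A549 genes. Opposite calls were given to 61 genes lower in HCC827 and higher in A549 and to 14 genes higher in HCC827 and lower in A549. With 1 library per condition no difference between the lines was tested.

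Some lists had like medians in the lines and others did not. The A549 medians are over the members kept in both pairs. These were 21 of the 25 acute-phase and complement genes and 42 of the 48 interferon-stimulated genes. Ribosome biogenesis had -1.01 in HCC827 and -0.98 in A549, and acute-phase and complement genes 2.19 and 2.47. Interferon-stimulated genes had 0.82 in HCC827 and 2.11 in A549, and proliferation genes -1.58 and -2.96. NRF2 targets had 0.94 in HCC827 and -0.33 in A549. AKR1C1 was higher in both (7.79 and 1.32), from 11.9 normalized counts in HCC827-vector and 13222 in A549-vector. ATF4 targets had 1.0 and -0.32. Single genes of the defence lists differed too, with LCN2 at 3.46 in HCC827 and 0.04 in A549 and TNIP3 at 5.75 and -0.19. CXCL5 had 4.04 and 0.55, and FTH1 2.17 and -0.29. Their vector levels also differed, though the pairs were scaled apart. FTH1 had 14270 normalized counts in HCC827-vector and 52825 in A549-vector, and CXCL5 2631 and 19716. LCN2 (8948 and 1174) and TNIP3 (78.7 and 34.1) lay the other way. EGFR, lower in HCC827 (-1.17), had 0.17 in A549, and DUSP6 had -2.76 and -1.49.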

How the data were processed

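RNA of HCC827 and A549 cells with myr-AKT1 or vector was sequenced, 1 library per condition. The study's methods name Bowtie2, which does not split reads over introns, the hg38 genome and HTSeq. The labels give rRNA depletion with a stranded kit, whereas the methods give poly(A) selection. The deposited values are a signal that the authors made by dividing the read count of each gene by 1 size factor per library, scaled within each cell line. The methods name RPKM, which these values are not. Whole reads were recovered from them (tolerance 0.001) except for 1 value in each vector library. IDs were matched to GENCODE 44 symbols, and 36 genes kept had none.

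Log2 ratios, 95% Clopper-Pearson intervals and gene list summaries were computed in Python 3.11.15 with pandas 2.3.3, scipy 1.17.1 and numpy 2.4.6, and checked on simulated data. Figures were drawn with matplotlib 3.10.9. Intervals cover counting error only. Genes of 3 reads or fewer in a library numbered 17 of those kept, and a count of 0 was set to a floor of 3 reads for a bound. Alternatives were total-read, TMM (edgeR 4.0.16) and 4-library scaling, a pseudocount of 1, other filters on the mean, protein-coding genes only and a 4-fold threshold. Named genes were AKT1, members of 44 gene lists, the 20 highest and lowest protein-coding and 8 highest and lowest lncRNA genes, the 15 largest differences in counts each way, and genes of named windows. The gene lists and members were chosen with earlier results of these data known, and the TTTGAA, TTTCCCGC and TGATGNAA motifs after the values had been seen. Promoters came from RefSeq (GRCh38.p14). Some genes are not reported here.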

Additional observations from a re-analysis of the deposited data

Results flagged for a closer look

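Of the genes named and kept in both lines, 11 were past 2-fold in opposite directions in the 2 cell lines, which is why they are given here with the vector library first and the log2 ratio and counting interval in brackets. Differences between lines were not tested, since each condition has 1 library, and the A549 libraries were scaled apart from the HCC827 libraries. The lower genes in HCC827 that were higher in A549 numbered 6. CLDN2, the pore claudin, had 373 and 10.1 normalized counts in HCC827 (-5.21, -6.43 to -4.22) and 311 and 2532 in A549 (3.03, 2.86 to 3.19). B3GALT5, a glycosyltransferase, had 532 and 37.7 normalized counts in HCC827 (-3.82, -4.40 to -3.29) and 189.5 and 1611 in A549 (3.09, 2.88 to 3.30). MIR31HG, the host lncRNA of miR-31, had 298 and 103 normalized counts in HCC827 (-1.53, -1.89 to -1.18) and 1236 and 3099 in A549 (1.33, 1.23 to 1.42). These 3 had the lowest HCC827 ratios of the group. TNC, a matrix glycoprotein, had 28061 and 10483 normalized counts in HCC827 (-1.42, -1.46 to -1.39) and 62.0 and 359.6 in A549 (2.54, 2.16 to 2.93). LPCAT1, the surfactant lipid enzyme, had 35095 and 13539 normalized counts in HCC827 (-1.37, -1.40 to -1.34) and 2165 and 4518 in A549 (1.06, 0.99 to 1.13). INPP4B, the lipid phosphatase, had 2190.2 and 1051 normalized counts in HCC827 (-1.06, -1.17 to -0.95) and 2777 and 7694 in A549 (1.47, 1.41 to 1.53). Under total-read scaling INPP4B fell short of 2-fold in HCC827.

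The other 5 were higher in HCC827 and lower in A549. GDF15, a stress cytokine, had 469 and 3830.3 normalized counts in HCC827 (3.03, 2.90 to 3.16) and 3019 and 1108 in A549 (-1.45, -1.55 to -1.34). PHGDH, the first enzyme of serine synthesis, had 209 and 646 normalized counts in HCC827 (1.63, 1.41 to 1.85) and 1544 and 569 in A549 (-1.44, -1.59 to -1.30). OSGIN1, an NRF2 target, had 93.0 and 248 normalized counts in HCC827 (1.41, 1.08 to 1.76) and 1342 and 341 in A549 (-1.98, -2.16 to -1.80). PHGDH and OSGIN1 belong to the ATF4 and NRF2 lists, whose medians also had opposite signs in the lines. NRARP, a Notch target that restrains Notch, had 72.3 and 181 normalized counts in HCC827 (1.33, 0.94 to 1.72) and 83.8 and 33.2 in A549 (-1.34, -1.99 to -0.72). LIF, a cytokine of the IL6 family, had 932 and 2265 normalized counts in HCC827 (1.28, 1.17 to 1.39) and 3924 and 1742 in A549 (-1.17, -1.26 to -1.09).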

How the results depend on the processing

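Under the 3 other scalings and a pseudocount of 1, no gene past 2-fold was past it in the other direction. The counts of genes past 2-fold stayed within 1.5 times of 1344 higher and 1348 lower under total-read scaling (1527 and 1183), TMM scaling (1307 and 1387), size factors over all 4 libraries (1457 and 1243), a pseudocount of 1 (1337 and 1341) and protein-coding genes only (1163 and 1136). Other filters and thresholds changed how many genes entered. With a mean of at least 10 the counts were 2453 higher and 2173 lower, with a mean of at least 200 they were 810 and 987, with no filter beyond 1 read in both libraries 3976 and 3224, and at a log2 threshold of 2 they were 354 and 243. Total-read scaling shifted every log2 ratio by 0.08 and, over the genes kept under the deposited scaling, left 1186 of the 1348 lower genes past 2-fold, whereas the 1183 above are of the genes kept after rescaling. Of the genes given above as lower, BTC, CCND1, IFNLR1, INPP4B, ITGA3, MRPS17 and PKM fell short of 2-fold under it, as did ITGA3, MRPS17 and PKM with size factors over all 4 libraries and MRPS17 with a pseudocount of 1. Leaving out a replicate was not possible with 1 library per condition. No paired analysis was possible because each condition has 1 library and no test was made. The median half-width of the counting interval was 0.16 on the log2 scale, and how much repeated HCC827 cultures would differ was not measured here.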

Other observations

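Beside the histone cluster, some runs of neighbouring genes shared a direction in HCC827. In the 2 Mb window on chromosome 6 from 84000001 to 86000000 (GRCh38), 5 of 6 genes kept were lower in HCC827-myr-AKT1, and the window median was -1.43 in HCC827 and -0.00 in A549. They include NT5E, whose values are given above, SYNCRIP, an RNA-binding protein gene (7145 and 2694 normalized counts, -1.41), and the snoRNA host SNHG5 (628 and 230.3, -1.45). On chromosome 2 from 172000001 to 174000000, 4 of 6 genes kept were lower, and the window median was -1.45 in HCC827 and -0.11 in A549. ITGA6 (7741 and 2431, -1.67), CDCA7 (1535 and 293, -2.39) and the lncRNA PDK1-AS1 (137 and 11.3, -3.59) lie there. These windows were chosen for their medians and no test was made.

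In the other direction, 4 of 8 genes kept on chromosome 1 from 208000001 to 210000000 were higher and 1 was lower, with a window median of 1.14 in HCC827 and 0.60 in A549. LAMB3 and MIR205HG, given above, lie there beside G0S2, an inhibitor of fat breakdown (1033 and 2907, 1.49). On chromosome 14 from 100000001 to 102000000, 4 of 7 genes kept were higher (window median 1.01, A549 0.06). WARS1, the tryptophan tRNA synthetase gene that interferon gamma induces, had 4613 and 13442 (1.54, 1.5 to 1.59).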
